A study of Microtus ochrogaster with 40 samples.

Results

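Endothelial nuclei of the nucleus accumbens were described in 40 prairie voles (Microtus ochrogaster). Kept barcodes, each taken as 1 nucleus, held at least 500 UMIs (unique molecular identifiers, 1 per captured RNA molecule) and at most 5% of UMIs from the 13 listed mitochondrial genes. A kept nucleus was called endothelial where the raw UMIs of Flt1, Cldn5, Pecam1 and Tek summed to at least 2 with at least 2 of these genes detected, and where Pdgfrb, Mog, Gja1, Slc17a7, Drd1a and Drd2 were all at 0. The rule found 624 members among 185995 kept nuclei, which is 0.335% of them. Each member was chosen by its own UMI counts, so the levels of the rule genes and the differences between members and other nuclei are given as descriptions, with no test. Before tissue was taken, each vole had spent 16 days with an unfamiliar vole, either of the other sex (called mate) or of its own sex (called peer), and the labels give no genetic manipulation and no other treatment. Each library came from the dissected nucleus accumbens of 1 animal. There were 11 females with a mate, 8 females with a peer, 11 males with a mate and 10 males with a peer, named here female mate, female peer and so on, with a number. The labels do not name the partners or the ages, so animals that lived together may both be included.

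Endothelial cells line every blood vessel. In the brain they form the blood-brain barrier: neighbouring cells are sealed by tight junctions, few vesicles cross them, and transporters in their membranes carry glucose, amino acids, vitamins and hormones inward and pump foreign compounds outward. Wnt signals help to keep this state, and vascular endothelial growth factor (VEGF) and angiopoietins act on endothelial cells through their receptors. Along the vessel the lining differs between arteries, capillaries and veins, and pericytes sit directly on the capillary wall.

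Kept nuclei numbered from 1793 to 8204 per library, and their median UMI count from 662 to 2201. The lowest depth was that of male mate 2, in which all 6375 barcodes left out for fewer than 500 UMIs were found. In all, 19903 barcode sequences occurred in more than 1 library, while no barcode sequence occurred among the members of more than 1 library. A doublet caller marked 7608 kept nuclei (4.09%), among them 43 members (6.89%). The number marked in each library was set in advance by an assumed rate of 0.8% per 1000 kept nuclei. Male mate 2 had 7 of its 9 members marked.

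The members carried an endothelial profile beyond the 4 genes that chose them. A list of 23 further endothelial identity genes gave a median of 14 UMIs from 8 genes per member, 596 members (95.5%) had at least 3 of these genes, and 5 members had none. Members held 717093 UMIs in all, with a median of 924 UMIs per nucleus (quartiles 672.5 and 1336.5, range 500 to 7681), a median of 742.5 detected genes and a median mitochondrial share of 1.07%. An animal contributed between 5 and 51 members, with a median of 12. The counts of the 4 rule genes are the values that made the choice. Flt1, a receptor for VEGF, gave 3635 UMIs in 607 members (97.3%). Cldn5, the main claudin of brain tight junctions, gave 1275 UMIs in 494 members (79.2%). Pecam1, an adhesion molecule of endothelial contacts, gave 830 UMIs in 426 members (68.3%). Tek, the angiopoietin receptor also called Tie2, gave 607 UMIs in 356 members (57.1%). All 4 genes were present in 188 members, 3 of them in 259 and 2 of them in 177, and the most frequent pair without another of them was Flt1 with Cldn5, in 90 members. The level of the further identity genes went with the number of rule genes: it was 16116 CPM (counts scaled to a library total of 1000000 UMIs) in members with all 4, 13773 CPM in those with 3 and 9895 CPM in those with 2, while the median depth was 1127.5, 897 and 811 UMIs in the same order.

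The edge of the rule was crossed by many nuclei. The positive part of the rule was met by 1407 nuclei, and 783 of them (55.7%) were left out because a gene required at 0 was present. Gja1, the astrocyte gap-junction protein, was present in 361 of those 783, Slc17a7, the glutamate transporter of excitatory neurons, in 303, Pdgfrb, the pericyte receptor for platelet-derived growth factor, in 166, Drd1a in 166, Drd2 in 84 and Mog in 61. Just inside the threshold, 38 members had a rule-gene sum of exactly 2 and gave 4649 CPM for the further identity genes. Just outside it, 316 nuclei with a single rule-gene UMI and none of the genes required at 0 gave 719 CPM, and 78 nuclei with 2 or more UMIs of only 1 rule gene gave 4051 CPM. The nuclei left out for a gene required at 0 gave 4847 CPM and held a mean of 4395 UMIs, against a mean of 1149 in members and 13715 CPM in all members. Of all UMIs of the 4 rule genes in kept nuclei, 35.0% lay in members. Folds against other nuclei are therefore set against a background that still holds much endothelial RNA.

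Beyond the rule genes, members were set beside all other kept nuclei gene by gene. Among genes outside the rule with at least 100 UMIs in members and UMIs in members of at least 35 animals, the 20 with the largest fold over all other kept nuclei had a median fold of 226. With the 783 near misses taken out of the other nuclei, that median was 857, and it lay between 204 and 261 when computed per animal, at a fixed depth of 500 UMIs or in members without pericyte UMIs. Of all 3788 genes with at least 50 UMIs in members, 369 (9.74%) were at least 10-fold higher in members, 425 (11.2%) were at or below 0.5-fold, and the median fold was 1.16. In the lists below, a gene counts as measured with at least 50 UMIs in members; since this filter favours genes that are high in members, the counts describe the lists and support nothing. In the next paragraphs, CPM with an SD are means over the 26 animals with at least 10 members, and a fold is that of the pooled counts of all 40 animals.

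**Figure D1:**
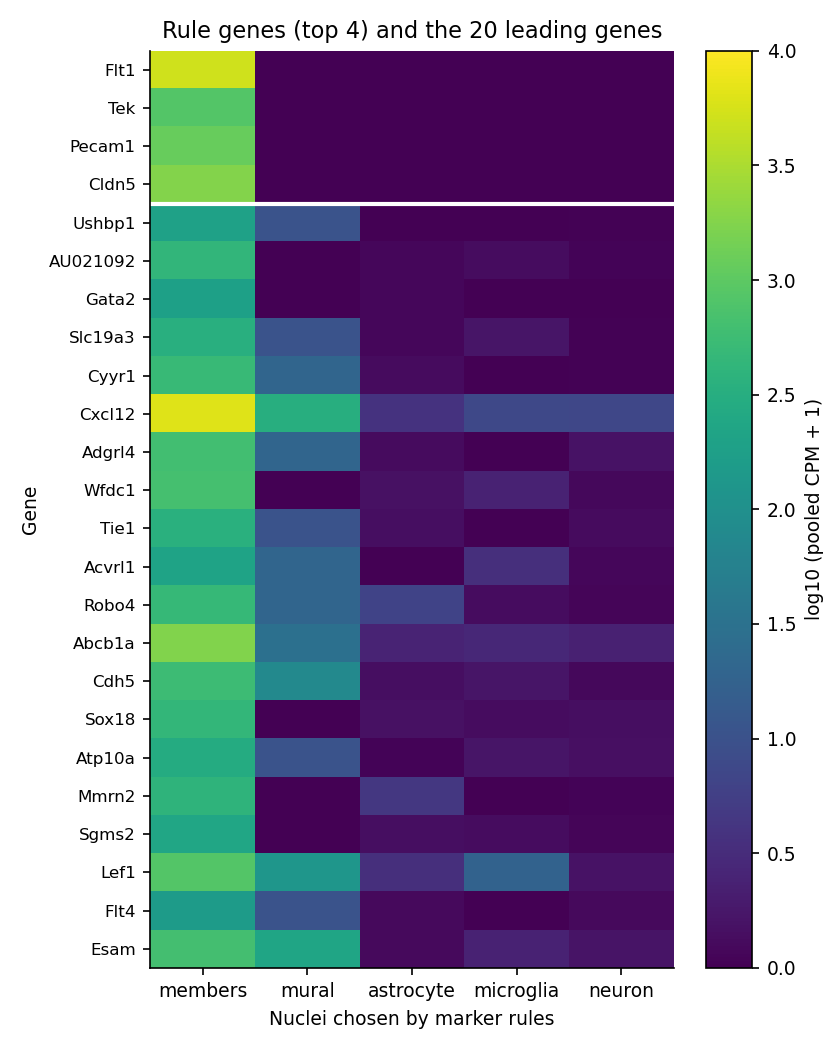
Pooled level of the 4 rule genes (above the white line) and the 20 genes outside the rule with the largest fold, as log10 of CPM + 1, in members and in nuclei chosen by marker rules for mural cells, astrocytes, microglia and neurons. The comparison rules required the 4 rule genes at 0, so their dark cells follow from the choice; the 20 other genes were at 16.9 CPM or lower in astrocytes, microglia and neurons, while Cxcl12 reached 326 CPM and Esam 221 CPM in mural nuclei.

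Ushbp1 had the largest pooled fold, with 193 ± 108 CPM in members (SD, n = 26) and a fold of 290, while AU021092 was first as the median over animals (314) and Gata2 at the fixed depth (387). Gata2, a transcription factor of endothelium and blood cells, had 190 ± 108 CPM and a fold of 279. Cyyr1 had a fold of 249, and Adgrl4, an adhesion receptor of endothelium, one of 243. Cxcl12, a chemokine that guides cells through its receptor Cxcr4, gave 4498 UMIs in 494 members, 5832 ± 2372 CPM and a fold of 249. It ranged from 2511 to 12541 CPM across animals, and in male mate 9 a single nucleus held 112 of the 518 UMIs. The remaining leading genes outside the groups below were AU021092 (fold 287), Wfdc1 (fold 237), Mmrn2, an extracellular matrix protein of vessels (fold 210), and Sgms2, a sphingomyelin synthase (fold 204). Itm2a, whose fold of 174 was the median of the identity list, was found in 79.5% of members. It was singled out after its values were seen.

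Free RNA in droplets can give UMIs in nuclei that do not express a gene, so shares of nuclei with a UMI were set beside those in 58530 neuron nuclei, chosen by Slc17a7, Drd1a or Drd2 with any count of the 4 rule genes. The median depth was 924 UMIs in members and 2356 in these neurons before thinning. With every nucleus thinned to 500 UMIs, Cxcl12 was detected in 71.6% of members and 0.393% of neurons, Abcb1a in 55.0% and 0.108%, and Lef1 in 36.7% and 0.0530%. Slc2a1 was detected in 75% and 1.15% at the same depth. Before thinning the shares were 79.2% and 1.61% for Cxcl12, 76.0% and 0.485% for Abcb1a, 54.8% and 0.227% for Lef1, and 88.5% and 5.70% for Slc2a1.

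Barrier transporters were mostly higher in members. Of 28 listed genes, 25 were used and 24 had at least 50 UMIs; 18 of those 24 were at least 10-fold higher in members (9.74% of all genes), 5 were between 2- and 10-fold, 1 was between 0.5- and 2-fold and none was lower, with a median fold of 24.8. Slc19a3, a thiamine transporter, had a fold of 266. Abcb1a, which encodes the efflux pump P-glycoprotein, gave 1757 ± 507 CPM and a fold of 215, and was detected in members of all 40 animals. Atp10a, a lipid flippase, had a fold of 212 and Slc16a4, a monocarboxylate transporter, one of 196. At the low end, the zinc importer Slc39a10 had a fold of 2.35 and the insulin receptor Insr one of 1.46. Textbook barrier transporters outside this ranking, chosen after their values were seen, were Slc2a1, the glucose transporter of the barrier (2444 UMIs in 552 members, fold 53.2), Slc7a5, a transporter of large neutral amino acids (fold 30.8), and Slco1c1, a thyroid hormone transporter (fold 38.4). At a fixed depth of 500 UMIs Slco1c1 was at 21.7, and the list's Slco2b1 and Slc38a3 fell below 10-fold, from 15.4 to 6.88 and from 14.3 to 7.96.

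Of 18 junction genes used, 14 were measured and 8 were at least 10-fold higher, with a median fold of 13.5. Cdh5, the cadherin of endothelial adherens junctions, gave 531 ± 193 CPM with a fold of 215, Esam 634 ± 263 CPM with a fold of 202, and Lsr, a protein of contacts where 3 cells meet, a fold of 162. Cgnl1, a cingulin-like scaffold of junctions, followed at 61.5. Magi3 had a fold of 3.5, and Cldn12 was not higher in members, with 85.1 CPM pooled over members against 120 CPM in other nuclei. Caveola and transcytosis genes were high as well: of 11 used, 10 were measured and 9 were at least 10-fold higher, with Cavin1 at 85.2, Cavin2 at 72.7 and Ehd2 at 37.9. Mfsd2a, a lipid transporter that restrains transcytosis, had a fold of 24.9, the transferrin receptor Tfrc one of 10.3, and Ehd4 one of 5.52. Ehd2 was at 17.7 at the fixed depth and at 22.5 as the median over animals. Ehd4 was at 406 CPM in nuclei chosen as microglia against 92.0 CPM pooled over members.

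Among ligands, receptors and targets of VEGF, angiopoietin, Notch and ephrin signalling, 30 genes were used, 14 were measured and 10 were at least 10-fold higher. Tie1, the receptor related to Tek, had a fold of 229, Robo4 one of 225, and Flt4, a further VEGF receptor, one of 202. The ligand Angpt2, which acts on Tek, had a fold of 194. Hey1, a target of Notch, had a fold of 2.33, and the ephrin ligand Efnb2 had 94.8 CPM in members against 91.9 CPM in other nuclei. Of 25 Wnt and barrier induction genes used, 13 were measured and 8 were at 10-fold or more: Lef1, a transcription factor of the Wnt pathway, gave 832 ± 183 CPM and a fold of 202, Foxf2 a fold of 185, Notum, a secreted Wnt inhibitor, 153, and the receptor Fzd6 105. Notum was at 85.5 at the fixed depth and at 99.7 as the median over animals. Foxf2 was at 201 CPM in nuclei chosen as mural against 240 CPM pooled over members. Ctnnb1, the shared transducer beta-catenin, had a fold of 3.58 and the coreceptor Lrp6 one of 0.963. In BMP and TGF-beta signalling 20 genes were used, 11 were measured and 5 were at least 10-fold higher. There the receptor Acvrl1 (fold 227), its coreceptor Eng (fold 193) and the target genes Id1 (fold 123) and Id3 (fold 58.1) led, while Bmpr2 had a fold of 2.25 and Smad1 one of 1.67.

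Of 27 endothelial transcription factors used, 20 were measured and 15 were at 10-fold or more, with a median fold of 84.7. Beside Gata2 and Lef1 these included the SOX factors Sox18 (399 ± 189 CPM, fold 214) and Sox7 (fold 208, and 137 as the median over animals). Mef2c and Mef2a, which neurons and microglia also express, had folds of 0.840 and 0.812. Of 17 basement membrane and integrin genes used, 14 were measured and 9 were at that level, led by Itga1, an integrin chain that binds collagen and laminin (fold 120), Nid1 (fold 50.4), the matrix protein Sparc (fold 47.6) and the laminin chain Lamb2 (fold 41.2). Lamc1 had a fold of 3.5 and Lamb1 one of 0.727. At the fixed depth Nid1 was at 25.0, Sparc at 27.5 and Lamb2 at 22.6, and in members without pericyte UMIs Nid1 was at 28.2 and Lamc1 at 1.97. Itga1, Nid1, Lamb2 and Lamc1 were higher still in nuclei chosen as mural, at 959, 556, 844 and 1343 CPM pooled over 117 nuclei. Pooled over members they were at 596, 138, 587 and 463 CPM. Sparc was at 1669 CPM in nuclei chosen as mural and 1785 CPM in those chosen as microglia, against 2592 CPM pooled over members.

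Of 24 vasoactive and haemodynamic genes used, only 9 were measured, and 6 of these were at least 10-fold higher. Vwf, the clotting protein von Willebrand factor, had a fold of 203, the natriuretic peptide receptor Npr1 one of 50.1, the pressure-gated channel Piezo1 one of 43.2, and Nos3, the endothelial nitric oxide synthase, one of 17.1. At the fixed depth Piezo1 was at 25.3, and Vwf was at 121 as the median over animals. Calcrl had a fold of 3.94 and Gucy1a1 one of 0.870. Of 22 adhesion and inflammation genes used, 10 were measured and 5 were at least 10-fold higher. Icam2 had a fold of 197, the cytokine receptor chain Il10rb one of 33.0 and B2m, the light chain of class I antigen presentation, one of 22.5. Il10rb was at 16.3 at the fixed depth, and it was at 521 CPM in nuclei chosen as microglia against 254 CPM pooled over members. B2m was at 968 CPM in nuclei chosen as microglia against 1318 CPM pooled over members. Lifr was at 3.16 and Il6st at 1.99. The selectins Sele and Selp, which recruit leukocytes to inflamed vessels, had no UMI in members. A count of 0 in 624 members allows a share of up to 0.481% of members with a UMI, as an approximate upper 95% bound of 3 over 624. This bound takes members as independent draws, although they came from 40 animals. In CPM, 3 UMIs in all members would be 4.18. Sele and Selp were at 0.0202 and 0.00864 CPM in other nuclei, under that value as well.

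Of 14 steroid, peptide and metabolic receptors used, 4 were measured, and none of them reached 10-fold. Igf1r, a receptor for insulin-like growth factor, had a fold of 6.77, Adipor2 2.97, Insr 1.46 and the thyroid hormone receptor Thra 0.772, with a median of 2.22 over these 4 genes. OXTR, the oxytocin receptor, which in the prairie vole accumbens has been tied to pair bonding, was at 0 UMIs in members and at 6.14 CPM in other nuclei, which makes it at least 1.47-fold lower against a floor of 3 counts over all members. The oestrogen receptors Esr1 and Esr2 were also at 0, but at 0.711 and 0.282 CPM in other nuclei they lay under the floor there as well. Of 12 glucocorticoid-responsive genes used, 6 were measured and 3 were at least 10-fold higher: Nfkbia (fold 20.2), Cdkn1a (fold 17.4) and Txnip (fold 10.9). Txnip was below 10-fold at the fixed depth (8.72) and in members without pericyte UMIs (7.48), and it was at 643 CPM in nuclei chosen as mural against 280 CPM pooled over members. Ddit4 was at 4.00, Sgk1 at 2.67 and Klf9 at 1.17.

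**Figure D2:**
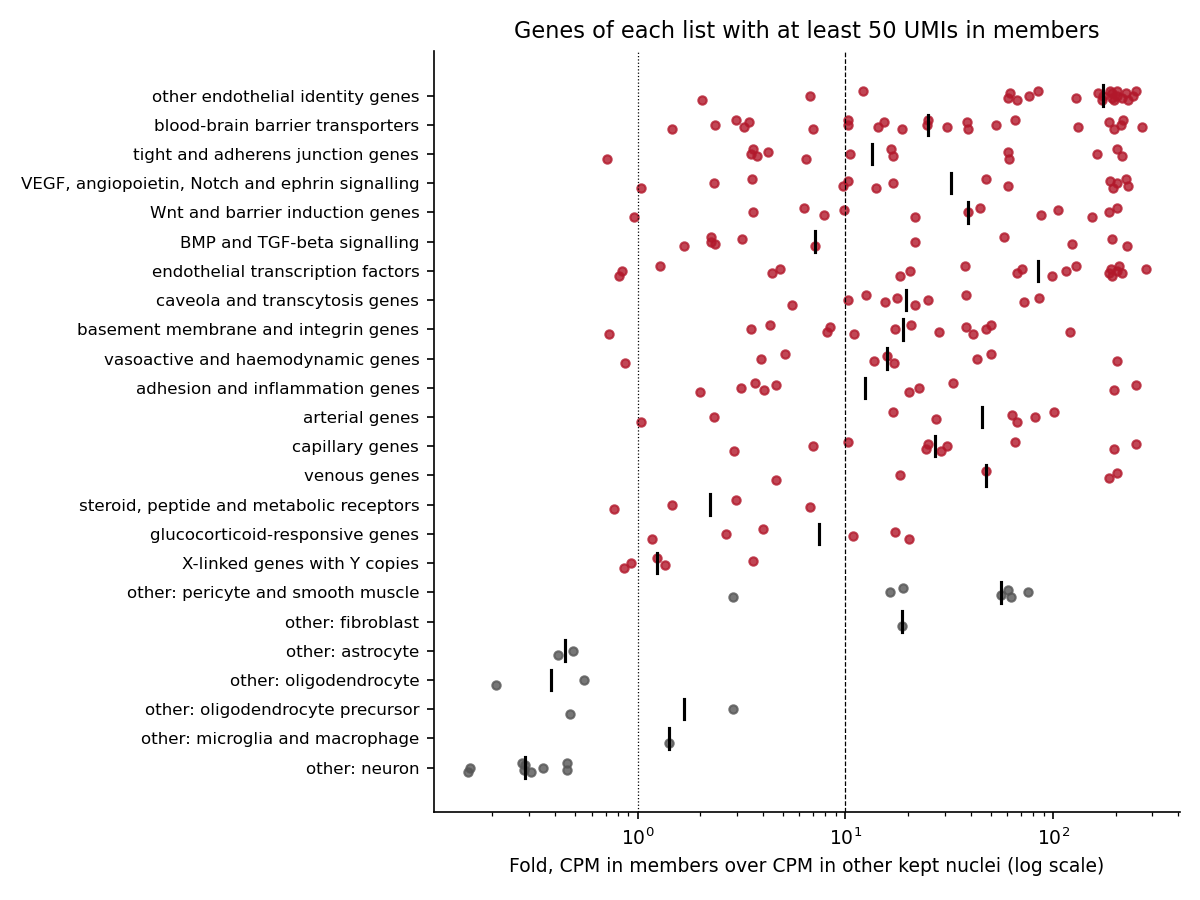
Fold of pooled CPM in members over pooled CPM in all other kept nuclei (log axis) for each listed gene with at least 50 UMIs in members; black bars are list medians, red points endothelial lists and other lists of function, grey points lists for other cell types, the dotted line 1-fold and the dashed line 10-fold. Most points of the endothelial lists lie right of 10-fold, with medians such as 174 for identity genes and 24.8 for barrier transporters, the neuron list lies at 0.456-fold or lower, and the pericyte list lies far to the right, with a median of 56.3.

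Neuron, astrocyte and oligodendrocyte genes were lower in members than in other nuclei, while pericyte genes were higher. The rule required Slc17a7, Drd1a, Drd2, Gja1 and Mog at 0, so the lower levels are partly fixed by the choice. The 783 nuclei left out for a gene required at 0 gave 5351 CPM for the neuron list. They gave 1792 CPM for the astrocyte list and 1215 CPM for the oligodendrocyte list. The summed neuron list was at 2406 CPM in members against 8129 CPM in other nuclei, and all 9 measured of its 11 genes were at or below 0.5-fold (11.2% of all genes), from Gad1 at 0.456 to the striatal neuropeptide gene Tac1 at 0.152. The same neuron list was at 1788 CPM in nuclei chosen as astrocytes and at 1906 CPM in those chosen as microglia. The astrocyte list was at 863 CPM against 2047 CPM in other nuclei, and the oligodendrocyte list at 626 CPM against 2333 CPM. The microglia list was at 407 CPM against 359 CPM, and at 26315 CPM in nuclei chosen as microglia. The fibroblast list was at 305 CPM against 96.5 CPM, with a UMI in 15.5% of members, and was at 1678 CPM in nuclei chosen as mural. Of its 9 genes 1 was measured, the matrix protein gene Dcn with 149 of the 305 CPM, and 2 were at 0. Dcn had a fold of 18.6, which was 10.1 at the fixed depth and 3.34 in members without pericyte UMIs. The lymphatic markers Prox1 and Lyve1 were at 0 in members. At 2.22 and 0.334 CPM in other nuclei, they lay under the floor of 4.18 CPM there as well.

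Pericyte and smooth muscle genes stood out although Pdgfrb was at 0 by rule. The list of 11 genes gave 3550 CPM in members, 117 CPM in other nuclei, 19.6 CPM in neurons and 21234 CPM in nuclei chosen as mural, and 6 of its 7 measured genes were at least 10-fold higher in members. At least 1 UMI of the list was present in 282 members (45.2%), and the 151 members (24.2%) with 3 or more held 92.7% of the UMIs of the list. Atp13a5, a pericyte marker, gave 1368 UMIs in 174 members (27.9%) against 0.523% of neurons with any count of the rule genes. Vtn gave 384 UMIs in 121 members, Cald1 274 in 163, Abcc9 111 in 60 and Higd1b 87 in 59. The smooth muscle genes Acta2 and Myh11 were rare, in 17 and 13 members. Members with 3 or more pericyte UMIs had a median of 1307 UMIs, against 828.5 in the 342 members with none, and 6809 against 9788 CPM of the rule genes. Barrier transporters summed to 13700 CPM in the first set and 18278 CPM in the second, and 18 of the 151 and 20 of the 342 were called doublets. The part of doublets in these values was not tested. In members without any pericyte UMI the leading genes had a median fold of 253, and the identity list one of 176.

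Arterial, capillary and venous genes were all found in members, and their shares in neuron nuclei differed between the lists. Of the members, 595 (95.4%) held a UMI of the 10 capillary genes, 341 (54.6%) one of the 16 arterial genes used, and 256 (41.0%) one of the 11 venous genes used. Neuron nuclei in this paragraph are the 57904 chosen with the 4 rule genes at 0. This leaves out neuron nuclei with UMIs of those genes, which the 58530 above include. With a median of 2352.5 UMIs against 924 in members, they held one in 50.4% (capillary), 37.9% (arterial) and 11.1% (venous). At 500 UMIs per nucleus the shares, in the same order, were 90.9%, 37.3% and 26.1% of members and 14.1%, 9.75% and 2.44% of neuron nuclei. For single genes the shares could be at the neuron level: Efnb2 was seen in 9.29% of members and 21.3% of neuron nuclei, and in 4.17% and 4.89% at 500 UMIs. Its pooled level was 94.8 CPM in members, 102 CPM in neuron nuclei, 137 CPM in microglia and 23.7 CPM in astrocytes. The source of its UMIs in members was not tested. Folds over other nuclei reached 101 for Gja4, a connexin of arterial endothelium, 82.0 for Alpl, alkaline phosphatase, 66.9 for Sema3g and 63.0 for Mgp among arterial genes. Mgp was uneven across animals, from 0 to 1511 CPM, with a median fold of 20.2 over animals and a higher level in members in 16 of 26 of them. Gja4 was at 60.3 in members without pericyte UMIs, and it was at 259 CPM in nuclei chosen as mural against 114 CPM pooled over members. In the capillary list they reached 249 for Cxcl12, 196 for Slc16a4, 65.6 for the anion transporter Slc22a8 and 30.8 for Slc7a5. Slc22a8 had a fold of only 1.27 in members without pericyte UMIs, and it was at 681 CPM in nuclei chosen as mural against 153 CPM pooled over members. In the venous list folds reached 203 for Vwf, 185 for the amino acid transporter Slc38a5 and 47.4 for the ephrin receptor Ephb4. The lowest venous values were 18.2 for the transcription factor Nr2f2 and 4.62 for Vcam1, and the lowest capillary ones 6.94 for Slc16a1 and 2.91 for Spock2. Nr2f2 was at 6.57 in members without pericyte UMIs, Vcam1 at 2.30 at the fixed depth, and Slc38a5 at 79.2 as the median over animals.

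To see whether genes of 1 zone lay in the same nuclei, members with a UMI of a given zone gene (carriers) were set beside the other members, in summed CPM of the remaining genes of each zone. Carriers of an arterial gene had a median ratio of 1.84 for the other arterial genes, above 1 for 10 of 11 carrier genes, of 0.885 for capillary genes, above 1 for 5 of 11, and of 1.32 for venous genes, above 1 for 9 of 11. Carriers of a capillary gene had a median ratio of 1.34 for the other capillary genes, above 1 for 9 of 10, of 0.677 for arterial genes and of 0.795 for venous genes. Carriers of a venous gene had a median ratio of 2.27 for the other venous genes, above 1 for 5 of 6, of 1.11 for arterial genes and of 0.881 for capillary genes. The contrast was steepest for Fbln5, an elastic fibre protein, whose 24 carriers from 14 animals had 8252 CPM of other arterial genes against 999 CPM in the rest, and a capillary ratio of 0.120. Mgp carriers (54 members) had ratios of 3.38 for arterial and 0.380 for capillary genes. The reverse held for Slc7a5, with 480 carriers, at 0.364 for arterial and 2.61 for other capillary genes. In each zone 1 gene did not go with the others: carriers of Alpl had 0.755 for other arterial and 1.59 for capillary genes, carriers of Slc22a8, the gene whose excess lay in members with pericyte UMIs, had 0.725 for other capillary genes, and carriers of Nr2f2 had 0.727 for other venous genes. Vwf and Vcam1 carriers were above 1 for arterial as well as venous genes, with arterial ratios of 3.15 and 3.71. These ratios are descriptions over nuclei of many animals. The carriers had the higher median depth for every gene but Il1r1, and the part of depth in these ratios was not tested.

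**Figure D3:**
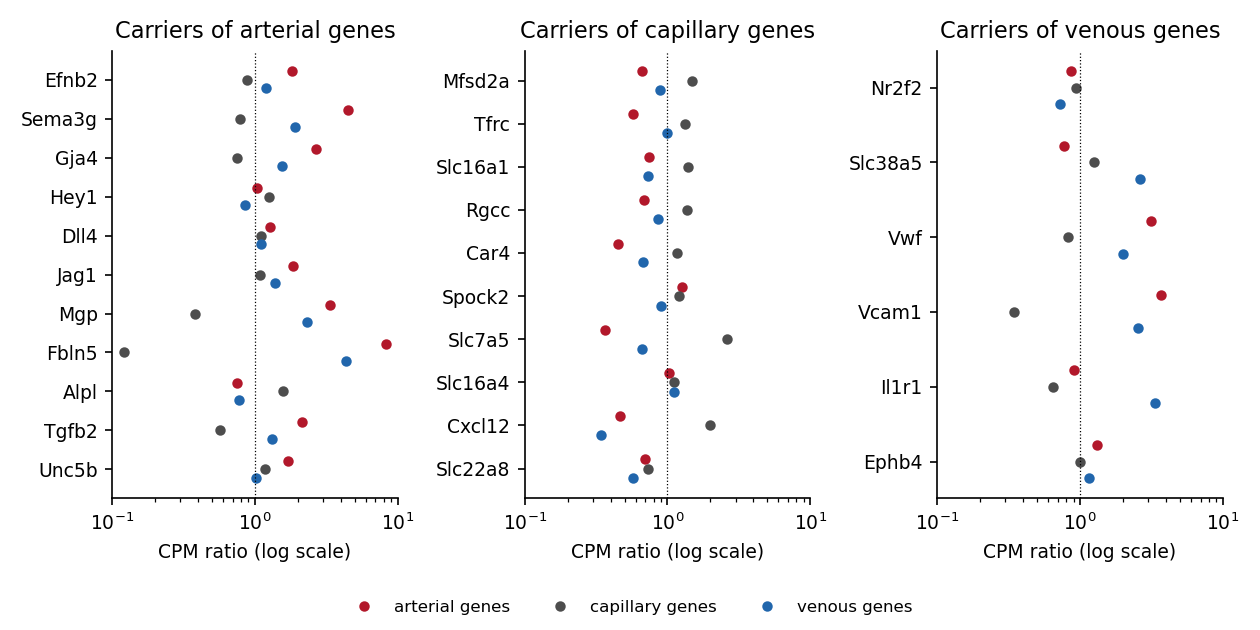
Ratio of summed CPM (log axis) in members that carry the named gene over members that do not, for the other arterial (red), capillary (grey) and venous (blue) genes; the carrier gene itself is left out of the sum. Red points lie right of 1 for 10 of 11 arterial carrier genes and left of 1 for 8 of 10 capillary carrier genes, while Alpl, Slc22a8 and Nr2f2 sit apart from the rest of their panels.

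The share of endothelial nuclei was compared over animals, since the rule uses neither sex nor pairing. It ranged from 0.130% through a median of 0.331% to 0.488% in female mates, from 0.188% through 0.316% to 1.05% in female peers, from 0.0891% through 0.304% to 0.735% in male mates, and from 0.160% through 0.295% to 0.547% in male peers. The 4 groups overlapped over most of their range, and their medians lay between 0.295% and 0.331%. The highest value came from female peer 2, where 51 of 4861 nuclei were members (exact 95% binomial interval 0.782% to 1.38%), and the lowest from male mate 7, with 5 members (0.0289% to 0.208%). These intervals cover counting error only. Mean shares were 0.320% ± 0.152 in mates (SD, n = 22) and 0.373% ± 0.231 in peers (n = 18). Taken as the average of both sexes, mates minus peers was -0.0589 percentage points, which is smaller than the SD of either group and did not pass the test (two-sided permutation test with 100000 resamples, p = 0.361, adjusted p = 0.894 over 9 tests). Females had 0.373% ± 0.218 (n = 19) and males 0.318% ± 0.163 (n = 21), which also did not pass (permutation p = 0.337, adjusted p = 0.894). The difference in the pairing effect between the sexes was -0.0884 percentage points (permutation p = 0.497, adjusted p = 0.894). Without female peer 2, the pairing, sex and interaction differences were -0.0149, 0.0194 and -0.000342 percentage points, so this animal moved each of them by more than 1.5 times.

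**Figure D4:**
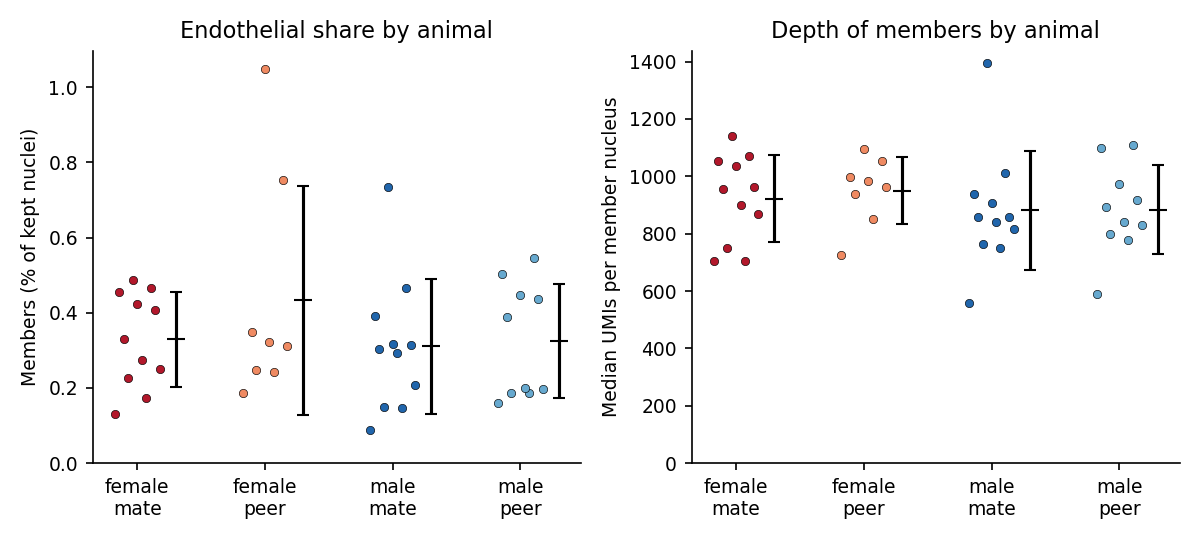
Left, members as a percent of kept nuclei in each of the 40 animals; right, median UMIs per member nucleus in each animal; points are animals, and the bar to their right is the mean ± SD of the group. The groups overlap in both panels, with female peer 2 at 1.05% above all other animals on the left and male mate 4 at 1396 UMIs above them on the right.

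The depth of members gave no difference that passed the test either. The median UMI count per member was 902 ± 178 in mates and 913 ± 140 in peers (SD, n = 22 and 18, permutation p = 0.779), and 934 ± 136 in females and 882 ± 179 in males (n = 19 and 21, permutation p = 0.291). Median detected genes were 726 ± 124 and 727 ± 97.9 in mates and peers, and 741 ± 94.99 and 713 ± 126 in females and males, with adjusted p of 0.931 and 0.894 in the permutation tests. Across the 40 animals no relation between the share and the depth of the library passed the test, with Pearson r = -0.0299 (permutation p = 0.845) and Spearman rho = -0.0557 (permutation p = 0.732) against the median UMIs per kept nucleus, and r = -0.242 without the 2 animals farthest from the median depth. Against the number of kept nuclei, r was -0.142 (permutation p = 0.382) and rho -0.253 (permutation p = 0.112), and r was -0.156 without the 2 farthest animals. Adjusted over the 2 relations, the p for r were 0.845 and 0.764 and those for rho 0.732 and 0.225.

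Gene expression within members was compared on UMIs summed per animal in the 26 animals with at least 10 members, which were 8 female mates, 6 female peers, 8 male mates and 4 male peers, with 517 members and between 9705 and 56641 UMIs per animal. The filter on low counts left 391 genes for the test. No gene passed an adjusted p of 0.05 (edgeR quasi-likelihood test with Benjamini-Hochberg adjustment) in mates against peers, in females against males, in the interaction of both, or in mates against peers within either sex, so 0.0% of the 391 genes were called in each. Unadjusted p fell under 0.05 for 27 genes (6.91%) by pairing, 15 (3.84%) by sex, 11 (2.81%) in the interaction, 22 (5.63%) by pairing in females and 13 (3.32%) by pairing in males. DESeq2 also called none, with 26, 13, 10, 19 and 12 genes at an unadjusted p under 0.05. On simulated counts with the same animals, changes were planted in some genes, and only planted genes that passed the filter on low counts are counted. For pairing, 91.3% of 104 2-fold changes and 100% of 150 4-fold changes were found, over about 432 genes in each of 5 draws. For sex it was 86.6% of 112 and 100% of 155, over about 436 genes. For the interaction it was 18.4% of 87 and 86% of 93, over about 414 genes. Every simulated gene had the same spread, so the shares do not cover genes that vary more between animals. For pairing, 1907 unchanged genes were tested beside the 104 and 150 planted ones. With so many changed genes the Benjamini-Hochberg cutoff is looser than with few, so the shares may be too high where few genes change. Planted genes lost to the filter are left out, and the comparisons within a sex were not simulated.

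The 4 rule genes were among the 391 genes fitted, but no p of theirs is read, and their levels are a description. Flt1 ranged from 3157 through a median of 4984 to 6816 CPM in female mates, from 3190 through 4358 to 5311 CPM in female peers and from 4155 through 5575 to 7728 CPM in male mates. The 4 male peers had 4536, 4175, 6232 and 5554 CPM. The groups overlapped. As a description, mates minus peers was 0.25 for Flt1 on the log2 scale (SE 0.12), -0.27 for Pecam1 (SE 0.17), -0.09 for Tek (SE 0.16) and -0.01 for Cldn5 (SE 0.18). By sex the 4 genes differed by between -0.21 (Flt1, SE 0.12) and 0.07 (Tek, SE 0.16). The rule chose members by these genes, so their levels within members are bounded from below and support no test.

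Barrier transporters gave no call by pairing. Of the 14 tested, 1 had an unadjusted p under 0.05 (6.91% of all genes), and their median difference was 0.17 on the log2 scale beside 0.04 over all 391 genes. Slc2a1 had a median of 3031 CPM in female mates, 3267 in female peers and 3794 in male mates, and the 4 male peers had 2435, 2651, 4794 and 4122 CPM, so the groups overlapped. The transporter with the lowest p was Slco2b1, an organic anion transporter. It ranged from 315 through a median of 358 to 521 CPM in female mates, from 208 through 391 to 682 CPM in female peers and from 398 through 563 to 1021 CPM in male mates, while the 4 male peers had 267, 420, 240 and 401 CPM. Male mates thus lay above 2 of the 4 male peers entirely and overlapped the others at their low end. Mates minus peers was 1.02 in males (SE 0.30, edgeR adjusted p = 0.667, all 8 male mates above the mean of male peers) and 0.48 over both sexes (SE 0.20, adjusted p = 0.645). The interaction was -1.09 (SE 0.41, adjusted p = 0.997). In the few animals left when members with UMIs of other cell types were taken out, Slco2b1 was -0.22 in mates over both sexes.

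**Figure D5:**
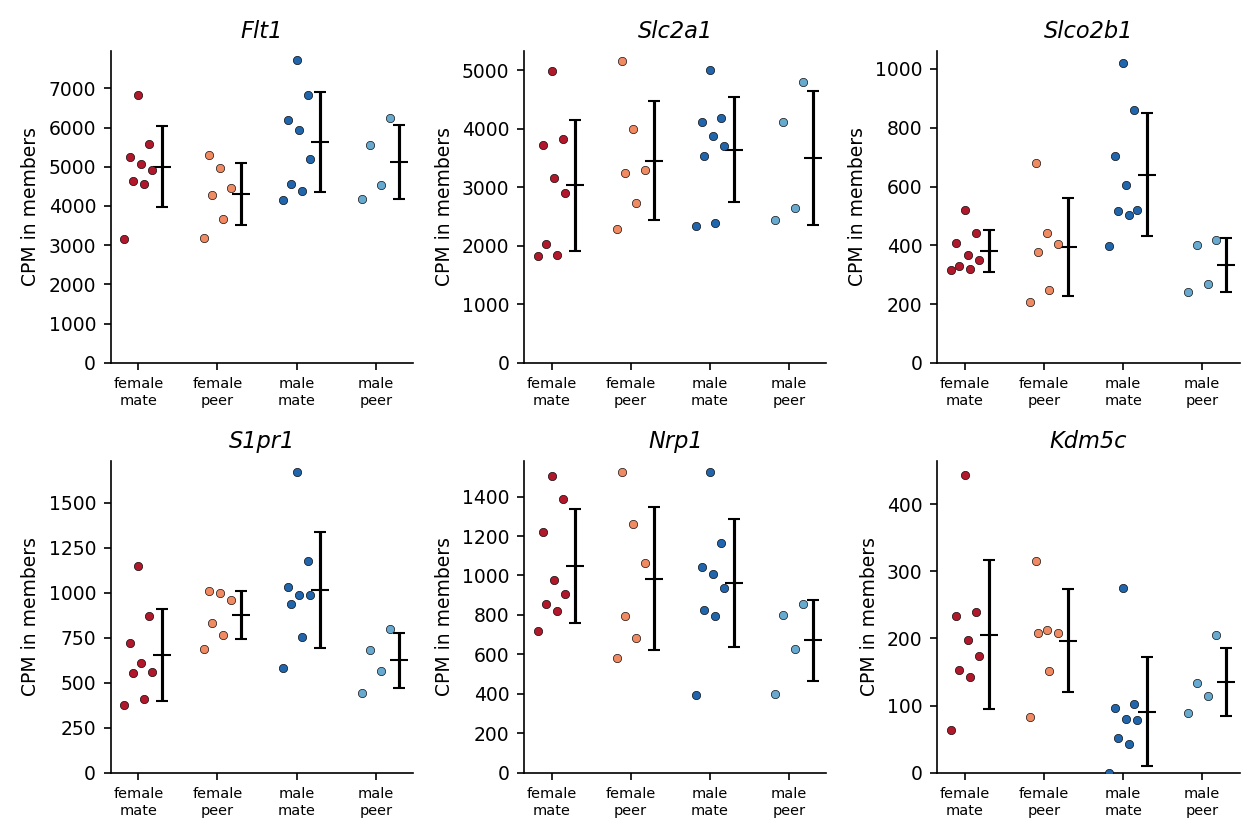
Level in members (CPM, linear axes from 0) of 6 genes in the 26 animals with at least 10 members; points are animals, and the bar is the mean ± SD of the group. All 6 genes overlap between groups; Slco2b1 and S1pr1 are high in several male mates, and Kdm5c has its 8 female mates between 62.9 and 443 CPM and its 8 male mates between 0 and 275 CPM.

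S1pr1, the endothelial receptor for sphingosine-1-phosphate, had the lowest p of the interaction. It ranged from 378 through 585 to 1151 CPM in female mates, from 689 through 895 to 1009 CPM in female peers and from 581 through 990 to 1670 CPM in male mates, and the 4 male peers had 567, 442, 685 and 802 CPM. Female mates were mostly below female peers and male mates mostly above male peers, with overlap in both sexes. The interaction was -1.10 on the log2 scale (SE 0.37, edgeR adjusted p = 0.997), and mates minus peers was 0.76 in males (SE 0.28, adjusted p = 0.974). S1pr1 is also an astrocyte gene, at 1880 CPM in nuclei chosen as astrocytes against 770 CPM pooled over members. The summed astrocyte list ranged in members from 608 to 1839 CPM in female mates, 315 to 2080 in female peers, 172 to 1615 in male mates and 458 to 1201 in male peers, with Gja1 at 0 by rule. In members without UMIs of other cell types, astrocyte genes included, both S1pr1 values had the opposite sign, 0.07 for the interaction and -0.59 in males, with only 2 female mates, 2 female peers, 1 male mate and 1 male peer left. In members without any pericyte UMI, which left 2 male mates and 4 male peers, S1pr1 differed by -0.05 between them.

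Among the 6 tested genes of VEGF, angiopoietin, Notch and ephrin signalling, Nrp1, a coreceptor for VEGF and semaphorins, had the lowest p by pairing. Its median was 940 CPM in female mates, 928 in female peers and 973 in male mates, and the 4 male peers had 800.5, 398, 856 and 629.8 CPM. The groups overlapped, and mates minus peers was 0.43 on the log2 scale (SE 0.19, edgeR adjusted p = 0.645) and 0.66 in males (SE 0.29, adjusted p = 0.974). The other lists had no gene with an unadjusted p under 0.05 by pairing, and their numbers of tested genes were small: 13 identity genes, 6 junction genes, 3 Wnt genes, 4 BMP genes, 5 transcription factors, 5 caveola genes, 8 basement membrane genes, 3 vasoactive genes, 3 adhesion genes, 6 capillary genes, 1 receptor and 1 glucocorticoid-responsive gene. The pericyte list, summed, ranged in members from 1416 to 6009 CPM in female mates, 757 to 6981 in female peers, 515 to 6044 in male mates and 3269 to 4065 in male peers, with Pdgfrb at 0 by rule. Its 3 tested genes gave no call, and its part in the differences above was not tested.

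The gene with the lowest p by pairing was ENSMOCG00000010003, which has no symbol in the files. It was 2.50 higher in mates on the log2 scale (SE 0.74, edgeR adjusted p = 0.320), and 3.79 higher in female mates than in female peers (SE 1.11, adjusted p = 0.403). With no filter on low counts it was called in both, at 2.44 and 3.80 (edgeR adjusted p = 5.50e-10 and 1.13e-10). It had 426 UMIs in only 50 members, and 140 of them lay in 1 nucleus of female mate 4, an animal with 172 UMIs from 5 nuclei. The animals ranged from 0 through a median of 114 to 3496 CPM in female mates, 0 through 25.3 to 126 CPM in female peers and 0 through 162 to 1501 CPM in male mates, and the 4 male peers had 334, 44.2, 685 and 0 CPM. Of the 26 animals, 8 were at 0, in all 4 groups. The next were ENSMOCG00000005011, with a difference of -0.60 (SE 0.19) and all 16 mates below the mean of the peers, and Canx, the chaperone calnexin, with 0.56 (SE 0.18), both at an adjusted p of 0.320 in the same test. Canx had 738 ± 239 CPM in mates (n = 16) and 531 ± 97.3 CPM in peers (n = 10).

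Within the sexes, genes of low p in females were Prpf4b, a splicing kinase, and Rps4x, a ribosomal protein gene. In males ENSMOCG00000018924, which has no symbol in the files, had the third lowest p. It differed by -0.80 (SE 0.30, edgeR adjusted p = 0.974), with 8 of 8 male mates below the mean of male peers. In male peer 4, 1 nucleus held 19 of the 49 UMIs of this gene. Prpf4b had 640 ± 212 CPM in female mates and 359 ± 107 CPM in female peers (SD, n = 8 and 6) and differed by 0.88 (SE 0.27, edgeR adjusted p = 0.403), but by 0.016 in the 2 female mates and 3 female peers left when members with pericyte UMIs were taken out. Rps4x had 419 ± 189 CPM in female mates and 848 ± 318 CPM in female peers, with a difference of -0.98 (SE 0.33, adjusted p = 0.634). Its interaction was -1.21 (SE 0.49, adjusted p = 0.997). Penk, a neuropeptide precursor of striatal neurons, differed by 1.17 in females (SE 0.54, adjusted p = 0.812) and by 2.02 in the interaction (SE 0.82, adjusted p = 0.997). It was at 478 CPM pooled over members against 1676 CPM in other nuclei. The summed neuron list ranged in members from 2378 to 4175 CPM in female mates, 946 to 3051 in female peers, 880 to 3498 in male mates and 859 to 3302 in male peers, and its part was not tested.

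Between the sexes, Kdm5c and Kdm6a served as a check of the labels, since females carry 2 copies of these X-linked genes. Both had too few UMIs in members to enter the test. Kdm5c had 202 ± 94.5 CPM in females and 106 ± 73.4 CPM in males (SD, n = 14 and 12), and Kdm6a 205 ± 110 CPM and 157 ± 82.6 CPM, with overlapping ranges for both. The lowest p by sex belonged to Prpf8, a core splicing factor, which had 447 ± 185 CPM in females and 314 ± 113 CPM in males and differed by 0.67 on the log2 scale (SE 0.24, edgeR adjusted p = 0.997). It was followed by ENSMOCG00000021922, which differed by -0.56 (SE 0.21), and ENSMOCG00000005542, which differed by 0.76 (SE 0.30), at the same adjusted p. Among listed genes, Klf2, a transcription factor induced by blood flow, differed by -0.41 (SE 0.20, adjusted p = 0.997). Its 8 female mates had a median of 793 CPM, the 6 female peers 706 CPM, the 8 male mates 875 CPM, and the 4 male peers 1201, 552, 1336 and 1660 CPM. Ppp1r1b, a phosphatase inhibitor of striatal projection neurons, differed by 0.80 (SE 0.36, adjusted p = 0.997), at 461 ± 261 CPM in females and 269 ± 201 CPM in males.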

How the data were processed

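Single-nucleus RNA libraries of 40 animals were made with the 10X Genomics droplet method, per the labels. The deposited files hold unnormalized UMI counts for each gene in each barcode, written by Cell Ranger 3.1.0 per the submitters' processing notes and the file headers. The genome build, annotation and barcode calling are not given in the sources used here. All files list 19130 genes, 3807 without a symbol. Nuclei of 1 animal were isolated separately, so the animal was the replicate; sex and pairing came from the labels, and replicate numbers follow accession order and served only as names.

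The members of the described set and the gene lists were chosen with earlier results of these data known. Of 372 entries in 27 lists, 343 were used. Raw counts were summed over members per animal, scaled to CPM, and folds were taken against all other kept nuclei with a floor of 3 counts. Animals with at least 10 members were fitted in edgeR 4.0.16 (R 4.3.3, TMM, filterByExpr, 1 mean per group). DESeq2 1.42.0 and limma 3.58.1 (voom) were alternatives. The fit and the permutation test were tested on simulated data. Doublets were called per library by the share of simulated doublets among 15 neighbours, taking the highest shares up to the assumed rate. They were kept in the main values and left out in an alternative. Named genes were the 20 with the largest fold, up to 4 highest and 2 lowest of each list with at least 50 UMIs, the 3 lowest p per comparison, the rule genes, Kdm5c and Kdm6a, and the 2 genes of lowest p in each list, of which values are given where the unadjusted p was under 0.05, a limit set after the values were seen. Slc2a1, Slco1c1, Itm2a, Fbln5, Cald1, Acta2, Myh11 and the genes at 0 were chosen after their values were seen. Further settings tried were thinning to 500 or 1000 UMIs, other rule thresholds, other filters, a depth covariate, blocks of 10 label numbers, neighbouring label numbers as a block, and leaving out male mate 2, female peer 2, members with UMIs of other cell types or each male peer. The sequences, builds and coordinates of genes were not used here.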

Additional observations from a re-analysis of the deposited data

Results flagged for a closer look

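Of 106 sets of 4 to 10 animals searched for 1 animal far from the others, 8 held one, where chance alone gives about 5% of sets. Kdm5c was at 443 CPM in members of female mate 1, with the next animal at 240, and at 275 CPM in male mate 6, with the next at 103. Kdm6a was at 0 CPM in female peer 5, where the next lowest animal had 208 CPM. Penk was at 706 CPM in female peer 2 (next 267) and at 1034 CPM in male mate 1 (next 309). Ppp1r1b was at 993 CPM in female mate 3 (next 560). Rps4x was at 267 CPM in male peer 2, below the next at 616. ENSMOCG00000010003 was at 3496 CPM in female mate 4, with the next at 160 CPM.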

How the results depend on the processing

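The count of called genes was 0 with DESeq2, with limma, with DESeq2 size factors, with the depth covariate, without doublets, without each male peer in turn and in members without pericyte UMIs (2 female mates, 3 female peers, 2 male mates and 4 male peers), with blocks of label numbers, with 1 member per animal and with a rule-gene sum of 3, and it was above 0 under 3 settings. With no filter on low counts (13353 genes) it was 5 by pairing, 1 by sex, 6 by pairing in females and 2 by pairing in males. At least 20 members were held by female mates 3 and 4 and female peers 2 and 4. The males with as many were male mates 8 and 9 and male peers 2, 4 and 8. In these animals (960 genes) the count of called genes was 1 by pairing. In members without UMIs of other cell types (327 genes) it was 2 by sex, 1 in the interaction, 4 by pairing in females and 3 by pairing in males; this left 2 female mates, 2 female peers, 1 male mate and 1 male peer, so the lone animals are assumed to vary like the others. The median fold of the 20 leading genes was 857 against other nuclei without near misses. Of 198 listed or leading genes with at least 50 UMIs, the fold moved by over 1.5 times for 53 without near misses (all upward), 40 at 500 UMIs (39 downward), 15 without pericyte UMIs and 10 as the median over animals (all downward), and fell below 10 for 0, 10, 13 and 2 of them. Of named genes, ENSMOCG00000010003 was called by pairing with no filter (2.44, edgeR adjusted p = 5.50e-10), with 20 members (3.59, adjusted p = 0.0347), and in females with no filter (3.80, adjusted p = 1.13e-10), and over all alternatives by pairing its adjusted p lay between 5.50e-10 and 0.727. Rps4x in females was called in members without UMIs of other cell types (-2.29, adjusted p = 0.0246, range over alternatives 0.0246 to 0.995). Changes of sign by pairing were seen for Tek without doublets (0.016), for Pecam1 with 20 members (0.084) and without other cell types (0.29), for Slco2b1 without other cell types (-0.22), and for Cldn5 with 20 members (0.022), blocks of label numbers (0.019) and a rule-gene sum of 3 (0.00423), and limma without (0.028) and with (0.021) the neighbour block; with each male peer left out in turn, Cldn5 lay between -0.138 and 0.0524, above 0 without male peer 8 or 10. By sex they were seen without other cell types for Tek (-0.34) and Pecam1 (0.38), and for Cldn5 with 20 members (0.15), with 1 member (0.033), with a sum of 3 (0.00637) and without pericyte UMIs (0.225), while leaving out each male peer gave -0.139 to 0.0611, above 0 without male peer 8 or 10. S1pr1 changed sign without other cell types in the interaction (0.071) and in males (-0.59), and in males without pericyte UMIs (-0.047). The causes were not tested. Male mate 2 had 9 members and was in no fit that needed 10. Over the alternatives the differences of genes not called in the main fit ranged widely. By pairing they ran from 0.12 to 0.61 for Canx, 0.21 to 0.67 for Nrp1 and 0.04 to 0.29 for Flt1. By sex it was -0.25 to -0.06 for Flt1, -0.69 to -0.24 for Klf2, 0.64 to 1.72 for Ppp1r1b and 0.39 to 1.45 for ENSMOCG00000005542. In females it was 0.016 to 1.03 for Prpf4b, 0.62 to 1.38 for Penk, -2.29 to -0.68 for Rps4x and 2.43 to 5.33 for ENSMOCG00000010003. In males it was 0.35 to 1.24 for Slco2b1, 0.38 to 0.98 for Nrp1 and -1.74 to -0.48 for ENSMOCG00000018924. In the interaction it was 1.33 to 2.38 for Penk, -2.68 to -0.89 for Rps4x and -1.84 to -0.80 for Slco2b1. All 43 alternative values of the share, depth and genes per member kept their direction or side of the threshold. The labels do not say which animals lived together. Neighbouring label numbers hold 1 female mate and 1 male mate in 11 of 20 cases, 2 female peers in 4 and 2 male peers in 5. If these were couples, animals would not be independent. With neighbours as a replicate block, added after the data were seen, limma estimated a correlation of 0.117 within the 8 neighbours that had both animals among the 26, and called 0 genes in all 5 comparisons, with 21 to 31 genes at an unadjusted p under 0.05. Over neighbour means the share of nuclei differed by -0.0529 percentage points between mates and peers (permutation p = 0.376), and within the 11 neighbouring mates by 0.0192 between female and male (exact permutation p = 0.784, higher in 7 females). Depth limits these tests: members had a median of 924 UMIs, and 391 genes had enough counts.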
